A study of Homo sapiens with 9 samples.

Results

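The genes described here are 10 members of the NF-kB system: the 5 transcription factor subunits NFKB1, NFKB2, REL, RELA and RELB, the inhibitors NFKBIA and NFKBIE, and the regulators TRAF3, MAP3K14 and BIRC3. They were taken by symbol from the 38478 gene rows of the deposited table, and all 10 were among the 13262 genes with enough reads to be tested. Transcripts were measured by RNA sequencing, after poly(A) selection, of the human myeloma cell line OPM-1, an established line of plasma cell origin. The groups were gFBXW7_gKMT2D, cells that stably expressed RNAs targeting FBXW7 and KMT2D, gFBXW7, with RNAs targeting FBXW7, and gLuc, the control with RNAs targeting luciferase. Each group had 3 libraries labelled as independent biological replicates, with the genotype given as WT throughout. The labels do not say how the RNAs act on their targets, whether a line is 1 clone, or how far the proteins were lost. The series asks how losing FBXW7, alone or with KMT2D, changes messenger RNA.

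NF-kB factors are pairs of subunits that are held in the cytoplasm by inhibitors of the IkB family until a signal destroys the inhibitor. In the canonical route the IKK complex marks IkB proteins for degradation and frees pairs such as p50 with RELA. In the noncanonical route the kinase NIK, encoded by MAP3K14, drives the processing of p100, the product of NFKB2, to p52, which pairs with RELB, and TRAF3 together with the ligases BIRC2 and BIRC3 keeps NIK low. Multiple myeloma often carries lesions of this route, and p100 is a substrate of the ubiquitin ligase receptor FBXW7 in myeloma cells. That step acts on protein, which was not measured here.

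The upstream stretches of 4 members are shown because they hold a match to the kB consensus, the sequence that NF-kB pairs bind, outside any annotated exon. The sequences are RefSeq's for GRCh38.p14, 5′ to 3′ on the strand of the gene, and start 250 bases before a transcript start. They end at that start or at the first GENCODE exon, and capitals mark matches to the consensus.
NFKB2 (chr10:102395455-102395692, + strand): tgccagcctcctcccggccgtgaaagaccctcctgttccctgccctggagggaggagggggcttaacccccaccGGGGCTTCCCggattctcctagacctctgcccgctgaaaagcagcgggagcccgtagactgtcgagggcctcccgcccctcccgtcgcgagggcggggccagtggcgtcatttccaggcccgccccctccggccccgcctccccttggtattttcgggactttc
BIRC3 (chr11:102317234-102317449, + strand): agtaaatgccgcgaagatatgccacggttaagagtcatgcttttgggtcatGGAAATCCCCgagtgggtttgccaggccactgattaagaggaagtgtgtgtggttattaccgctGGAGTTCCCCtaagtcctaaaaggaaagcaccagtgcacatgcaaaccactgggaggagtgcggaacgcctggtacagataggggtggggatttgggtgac
NFKBIA (chr14:35404750-35404999, - strand): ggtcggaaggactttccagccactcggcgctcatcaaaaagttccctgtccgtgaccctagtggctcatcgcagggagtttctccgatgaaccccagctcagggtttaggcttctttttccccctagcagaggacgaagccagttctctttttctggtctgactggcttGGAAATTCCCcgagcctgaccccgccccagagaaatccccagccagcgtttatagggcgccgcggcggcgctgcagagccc
TRAF3 (chr14:102777199-102777448, + strand): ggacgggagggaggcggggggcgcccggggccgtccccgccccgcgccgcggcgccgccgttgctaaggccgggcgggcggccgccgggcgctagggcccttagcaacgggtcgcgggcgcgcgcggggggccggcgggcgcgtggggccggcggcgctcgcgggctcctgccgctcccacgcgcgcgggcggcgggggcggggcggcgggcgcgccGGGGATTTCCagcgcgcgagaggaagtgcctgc

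The NFKB2 stretch lies inside the gene, upstream of an internal start, and held 1 match, as did the NFKBIA and TRAF3 stretches, while the BIRC3 stretch held 2. The consensus has 10 letters and was searched as a letter pattern on both strands. Overlapping matches were counted separately, and only their capitals run together. In the full windows of 250 bases, 6 of the 8 members with a window had a match (NFKB1, NFKB2, REL, NFKBIA, TRAF3 and BIRC3), and RELA and MAP3K14 had none. By window, 7 of the members' 12 held a match, and 9.96% of the 35116 windows of all genes did. A match describes letters and is not a binding site.

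Total counts per library lay between 16337492 and 27076242. Plasma cell markers were present: all 10 were tested and summed to 11240 to 17260 CPM (read counts scaled to a common library size) in gFBXW7_gKMT2D, 14050 to 14990 in gFBXW7 and 13130 to 15590 in gLuc. Of 25 markers of other cell types 3 were tested, which were PECAM1, HBB and NCAM1. The 6 with 0 reads in every library were CD2, COL1A2, DCN, KRT8, EPCAM and PPBP. These 25 markers summed to 89.4 to 124 CPM in gFBXW7_gKMT2D, 90.6 to 95.7 in gFBXW7 and 92.3 to 104 in gLuc. The library gFBXW7_gKMT2D 3 stood apart. Ribosomal protein genes took 11.2% of its counts and between 5.03% and 8.56% elsewhere, and many of the fold changes are also given without it. Neither targeted transcript passed the test in any comparison. FBXW7 had 46.0, 45.2 and 71.7 CPM in gFBXW7_gKMT2D, 53.4, 55.5 and 54.8 in gFBXW7 and 53.8, 47.9 and 48.7 in gLuc. KMT2D had 48.0, 107 and 28.6 CPM in gFBXW7_gKMT2D, 48.8, 65.1 and 59.1 in gFBXW7 and 41.0, 58.3 and 104 in gLuc. With the way the RNAs act not stated, these transcripts give no check of the labels.

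Both noncanonical subunits had more transcript per length than any canonical one in their means, and RELB had 1.12 to 2.64 times the RPKM (reads scaled to gene length and library size) of RELA in the single gFBXW7_gKMT2D libraries. NFKB2, the p100 precursor, had the highest mean level of the 10 genes, 68.3 RPKM over the 9 libraries, at percentile 92.4 of all tested genes. BIRC3, the ligase cIAP2, followed at 64.4 RPKM and RELB, the partner of p52, at 45.9 RPKM. The canonical subunits were lower, with RELA, the main activating subunit, at 28.1 RPKM, NFKB1, the p105 precursor of p50, at 14.4 RPKM, and REL, the lymphoid subunit c-Rel, at 1.81 RPKM, at percentile 30.7.

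Between these levels stood NFKBIA, the inhibitor IkB-alpha, at 21.1 RPKM, NFKBIE, the inhibitor IkB-epsilon, at 8.95 RPKM, the adaptor TRAF3 at 8.57 RPKM and MAP3K14 at 6.75 RPKM. Some neighbours in this order overlapped in their ranges over the 9 libraries, as NFKB2 (43.6 to 75.8 RPKM) did with BIRC3 (54.5 to 77.8 RPKM). BIRC3 and RELB (33.8 to 50.6 RPKM) did not overlap. RELB overlapped with RELA (12.8 to 36.9 RPKM), NFKB1 with NFKBIE and MAP3K14 (3.17 to 8.54 RPKM) with REL (1.03 to 3.50 RPKM) only through the library gFBXW7_gKMT2D 3.

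**Figure D1:**
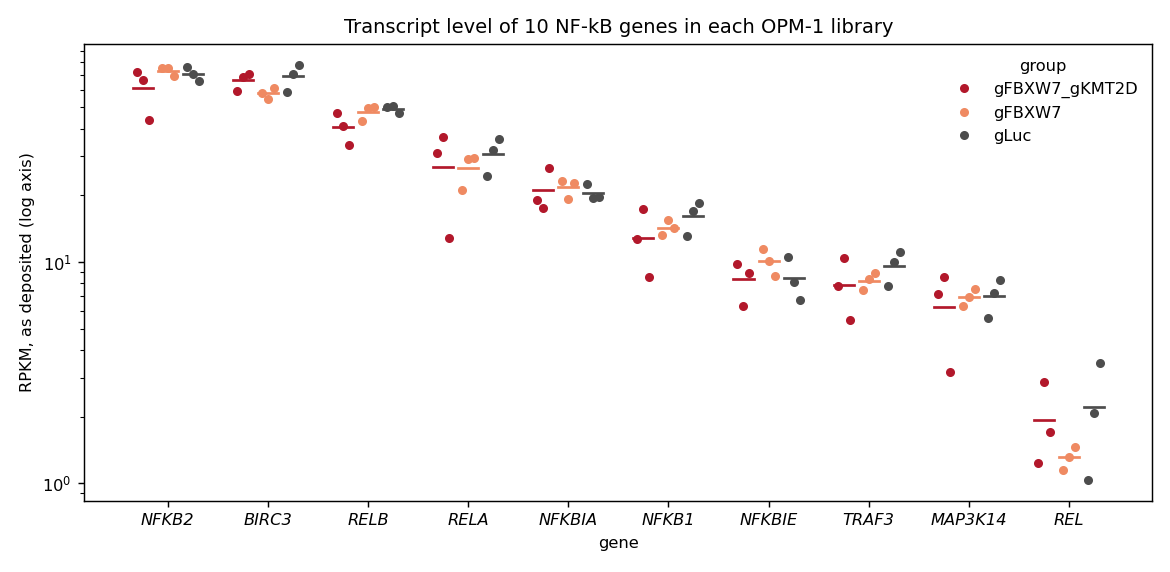
Deposited RPKM (log axis) of the 10 NF-kB genes in each library, ordered by mean level, with points for libraries and short lines for group means (n = 3 each). NFKB2 and BIRC3 sit highest (means of 68.3 and 64.4 RPKM) and REL lowest (1.81 RPKM), and the lowest red point of NFKB2, RELB, RELA, NFKB1, TRAF3 and MAP3K14 is gFBXW7_gKMT2D 3.

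The shares of the subunits overlapped between the groups. NFKB2 made up 40.4% to 44.0% of the summed RPKM of the 5 subunits in gFBXW7_gKMT2D, 42.0% to 48.9% in gFBXW7 and 38.6% to 46.1% in gLuc. NFKB2 and RELB together made up 65.4% to 77.1% in gFBXW7_gKMT2D, 72.5% to 76.9% in gFBXW7 and 66.1% to 76.6% in gLuc. The ratio of NFKB2 to NFKB1 was 4.89 ± 0.954 in gFBXW7_gKMT2D, 5.14 ± 0.476 in gFBXW7 and 4.52 ± 1.16 in gLuc (SD, n = 3 each). No group stood apart in any of these measures.

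No comparison called any of the 10 genes. For gFBXW7_gKMT2D against gLuc 0 of 10 passed an adjusted p of 0.05, where 7 of 13262 genes (0.0528%) did. For gFBXW7_gKMT2D against gFBXW7 0 of 10 passed, where 8 genes (0.0603%) did. For gFBXW7 against gLuc 0 of 10 passed, and no gene of the 13262 (0%) did. With both groups that carry the FBXW7 RNA averaged against gLuc, 0 of 10 passed, where 1 gene (0.00754%) did. The tests were edgeR quasi-likelihood tests, adjusted by Benjamini-Hochberg across the 13262 genes, and DESeq2 and limma-voom called none of the 10 in any comparison either. At an unadjusted p under 0.05 the counts were 0 of the 10 in each comparison and, among all genes, 3.61%, 4.22%, 1.58% and 1.92% in the order above. With so few calls over all genes, the absence of calls does not set the members apart from other genes, and the intervals below say how large a difference the data leave room for. The comparisons share libraries: both groups are set against the same gLuc libraries, and both comparisons of gFBXW7_gKMT2D use the same 3.

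NFKB2 (chr10:102394110-102402529), the gene whose protein FBXW7 binds, had 304, 256 and 214 CPM in gFBXW7_gKMT2D, 325, 315 and 283 CPM in gFBXW7, against 327, 285 and 259 CPM in gLuc. The lowest value was that of gFBXW7_gKMT2D 3, and all groups overlapped. Within each group the CPM fell from replicate 1 to replicate 3. In gFBXW7 against gLuc the log2 fold change was 0.085 (SE 0.16, 95% interval -0.27 to 0.44, adjusted p = 0.956), which as a fold runs from 0.827 to 1.36. In gFBXW7_gKMT2D it was -0.17 against gLuc (SE 0.16, interval -0.53 to 0.19, adjusted p = 0.902) and -0.25 against gFBXW7 (SE 0.16, interval -0.61 to 0.11, adjusted p = 1). Without gFBXW7_gKMT2D 3 these values were -0.051 and -0.13. Averaged over both groups against gLuc it was -0.042 (SE 0.14, interval -0.35 to 0.27, adjusted p = 0.935), and 0.015 without that library. A 2-fold difference of the NFKB2 transcript lies outside each of these intervals. In bulk RNA fewer cells with a transcript and less of it per cell cannot be told apart.

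RELB, the partner of p52 (chr19:45001430-45038198), varied least. It had 108, 86.4 and 90.4 CPM in gFBXW7_gKMT2D, 102, 113 and 112 CPM in gFBXW7, against 117, 111 and 100 CPM in gLuc, so that 2 of the 3 gFBXW7_gKMT2D libraries lay below every library of the other groups. The log2 fold change was -0.21 in gFBXW7_gKMT2D against gLuc (SE 0.13, interval -0.50 to 0.081, adjusted p = 0.902), -0.20 against gFBXW7 (SE 0.13, interval -0.49 to 0.090), and -0.0085 in gFBXW7 against gLuc (SE 0.13, interval -0.30 to 0.28). Its SD within groups, 0.13 on the log2 scale, was the smallest of the 10, where the median over all tested genes was 0.27.

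Among the canonical subunits NFKB1 (chr4:102501329-102617302) had 56.1, 70.3 and 44.3 CPM in gFBXW7_gKMT2D, 60.3, 68.4 and 61.5 CPM in gFBXW7, against 59.4, 72.0 and 76.8 CPM in gLuc. Its log2 fold change in gFBXW7_gKMT2D against gLuc, -0.28 (SE 0.18, interval -0.68 to 0.11, adjusted p = 0.902), was -0.13 without gFBXW7_gKMT2D 3 and -0.47 (adjusted p = 0.264) without gFBXW7_gKMT2D 2. RELA (chr11:65653596-65663094) had 80.0, 87.4 and 38.7 CPM in gFBXW7_gKMT2D, 56.2, 75.0 and 74.6 CPM in gFBXW7, against 64.7, 79.8 and 86.7 CPM in gLuc. The groups overlapped for both genes, and for RELA the gFBXW7_gKMT2D group held both the highest and the lowest library of the 9. The RELA log2 fold change of gFBXW7_gKMT2D against gLuc was -0.16 (SE 0.27) with all libraries and 0.12 without gFBXW7_gKMT2D 3. Against gFBXW7 the values of gFBXW7_gKMT2D were 0.0045 for RELA, and 0.29 without that library, and -0.15 for NFKB1, and 0.0028 without it.

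REL (chr2:60881521-60931610) spread most, with 9.83, 20.9 and 15.9 CPM in gFBXW7_gKMT2D, 9.45, 10.4 and 11.4 CPM in gFBXW7, against 8.48, 15.9 and 26.2 CPM in gLuc. Its gLuc libraries spanned the values of both other groups, and its gFBXW7 libraries lay close together at the low end. Its log2 fold change of -0.69 in gFBXW7 against gLuc (SE 0.38, interval -1.54 to 0.16, adjusted p = 0.956) was the farthest from 0 of any member, and with single libraries left out it ran from -1.01 (without gLuc 1, adjusted p = 0.575) to -0.23 (without gLuc 3). Against gFBXW7, gFBXW7_gKMT2D had a value of 0.58 (SE 0.38, interval -0.27 to 1.43, adjusted p = 1), which was 0.30 without gFBXW7_gKMT2D 2. REL also had the fewest reads, 160 in its lowest library.

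All 5 subunits had a fold change below 0 in gFBXW7_gKMT2D against gLuc, with a median of -0.17, while the median over all 13262 tested genes was 0.0002. None of them passed the test, and without gFBXW7_gKMT2D 3 RELA lay above 0, at 0.12, and the other 4 between -0.18 (RELB) and -0.051 (NFKB2). The sum of their RPKM was 165, 165 and 100.5 in gFBXW7_gKMT2D, 154, 171 and 165 in gFBXW7, and 164, 172 and 171 in gLuc. Apart from gFBXW7_gKMT2D 3, the libraries of the 3 groups thus ran together between 154 and 172 RPKM. These sums are scaled to raw library totals, without the TMM scaling factors used in the tests. Those factors were 0.854 in gFBXW7_gKMT2D 3 and 1.09 in gFBXW7_gKMT2D 2.

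**Figure D2:**
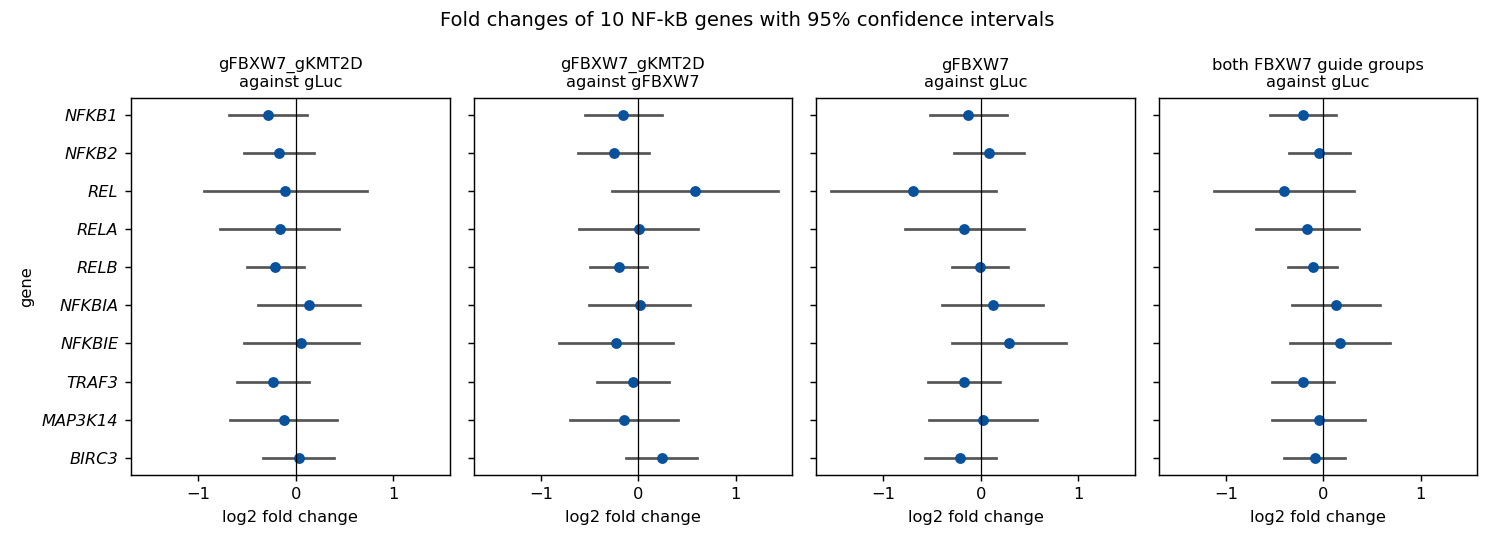
Log2 fold change of the 10 NF-kB genes in each comparison, with points for the edgeR estimate and bars for its 95% confidence interval (3 libraries a group, 9 in the fit). Every interval includes 0, and REL has the widest, from -1.54 to 0.16 in gFBXW7 against gLuc.

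The inhibitors spread widely within groups. NFKBIA (chr14:35401511-35404749), an NF-kB target whose product shuts the factors off, had 29.8, 25.2 and 48.9 CPM in gFBXW7_gKMT2D, 37.5, 30.1 and 34.8 CPM in gFBXW7, against 36.1, 29.2 and 28.9 CPM in gLuc. Its highest and its lowest library both lay in gFBXW7_gKMT2D, the highest being replicate 3. The log2 fold change against gLuc was 0.14 (SE 0.23, interval -0.38 to 0.66, adjusted p = 0.909), and -0.19 without that library. Against gFBXW7 it was 0.016 (SE 0.23), and -0.31 without that library.

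NFKBIE (chr6:44258166-44265788), which binds REL and RELA, had 25.2, 14.9 and 27.1 CPM in gFBXW7_gKMT2D, 30.5, 26.1 and 21.8 CPM in gFBXW7, against 28.0, 20.1 and 16.2 CPM in gLuc. All groups overlapped, and the lowest library lay in gFBXW7_gKMT2D. Its log2 fold change was 0.29 in gFBXW7 against gLuc (SE 0.26, interval -0.30 to 0.87, adjusted p = 0.956) and -0.23 in gFBXW7_gKMT2D against gFBXW7 (SE 0.26, interval -0.82 to 0.36, adjusted p = 1). With single libraries left out, the first ran from 0.11 (without gLuc 3) to 0.53 (without gLuc 1) and the second from -0.38 (without gFBXW7_gKMT2D 3) to -0.0028 (without gFBXW7_gKMT2D 2). Against gLuc, gFBXW7_gKMT2D had 0.057 (SE 0.26), and -0.10 without gFBXW7_gKMT2D 3.

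BIRC3 (chr11:102317450-102339403), which ubiquitinates NIK and whose upstream stretch held 2 consensus matches, was the only member for which all libraries of a group lay on one side of another group. It had 417, 443 and 586 CPM in gFBXW7_gKMT2D, 421, 384 and 420 CPM in gFBXW7, against 424, 480 and 514 CPM in gLuc. Each gFBXW7 library lay below each gLuc library and gFBXW7_gKMT2D overlapped with both. The log2 fold change of gFBXW7 against gLuc was -0.21 (SE 0.16, interval -0.57 to 0.15, adjusted p = 0.956). Of all tested genes 8.86% lay apart in that comparison, so 1 of 10 members is near the share of all genes. In gFBXW7_gKMT2D the value against gLuc was 0.029 (SE 0.16), and -0.13 without replicate 3, whose BIRC3 level was the highest of the 9.

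TRAF3 (chr14:102777476-102911500), the adaptor that brings the ligases to NIK, had 83.2, 102 and 68.8 CPM in gFBXW7_gKMT2D, 82.6, 89.4 and 92.8 CPM in gFBXW7, against 85.5, 103 and 111 CPM in gLuc. Its values were -0.24 (SE 0.17, interval -0.61 to 0.13) in gFBXW7_gKMT2D and -0.18 (SE 0.17, interval -0.55 to 0.19) in gFBXW7, both log2 fold changes against gLuc, and the first was -0.11 without gFBXW7_gKMT2D 3 and -0.40 without gFBXW7_gKMT2D 2. All 3 groups overlapped, with the lowest library in gFBXW7_gKMT2D and the highest in gLuc. MAP3K14 (chr17:45263119-45317145) had 34.6, 38.0 and 18.0 CPM in gFBXW7_gKMT2D, 31.6, 33.6 and 35.7 CPM in gFBXW7, against 27.7, 33.7 and 37.8 CPM in gLuc. The gFBXW7_gKMT2D group again held the highest and the lowest value, and the log2 fold change against gLuc was -0.12 (SE 0.25, interval -0.68 to 0.43) with all libraries and 0.14 without replicate 3. Against gFBXW7 the values were -0.15 for MAP3K14, and 0.12 without replicate 3, and -0.059 for TRAF3, and 0.076 without it. An antisense gene, MAP3K14-AS1, overlaps MAP3K14, and AP001362.2 overlaps RELA on the opposite strand; the library kit keeps strand, but whether the counting used it is not given in the sources used here.

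Within groups the members varied by library. REL, NFKB1, RELA, TRAF3 and MAP3K14 lay above their group mean in gLuc 3 and gFBXW7_gKMT2D 2 and below it in gLuc 1, for example by 0.78, 0.49 and -0.84 on the log2 scale for REL. NFKBIE, NFKBIA and RELB went the other way in these libraries, with -0.36, -0.53 and 0.42 for NFKBIE and -0.12, -0.13 and 0.10 for RELB. NFKB2 also did so in gLuc 3 and gLuc 1. In gFBXW7_gKMT2D 3 RELA and MAP3K14 lay 0.74 and 0.67 below their group mean, as deviations of -0.74 and -0.67, and NFKBIA 0.56 above it.

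The same libraries differed in the balance of long and short genes. The median log2 CPM of the longest quartile of tested genes minus that of the shortest quartile was 0.69, 1.30 and 0.30 in gFBXW7_gKMT2D, 0.60, 0.80 and 0.83 in gFBXW7, and 0.64, 1.07 and 1.37 in gLuc. It was highest in gLuc 3 and gFBXW7_gKMT2D 2 and lowest in gFBXW7_gKMT2D 3. Its part in the members' values was not tested beyond the model that removes the length trend of each library. In that model the log2 fold change of NFKBIA in gFBXW7_gKMT2D against gLuc was -0.014. RELA and NFKBIE have like lengths, 2578 and 2581 bases. They deviated by 0.18 and -0.36 in gLuc 3 and by 0.43 and -0.53 in gFBXW7_gKMT2D 2. The median SD within groups was 0.27 on the log2 scale for the 10 members and for all tested genes. It was lower, at 0.22, for the tested genes with a mean log2 CPM of at least 3.

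**Figure D3:**
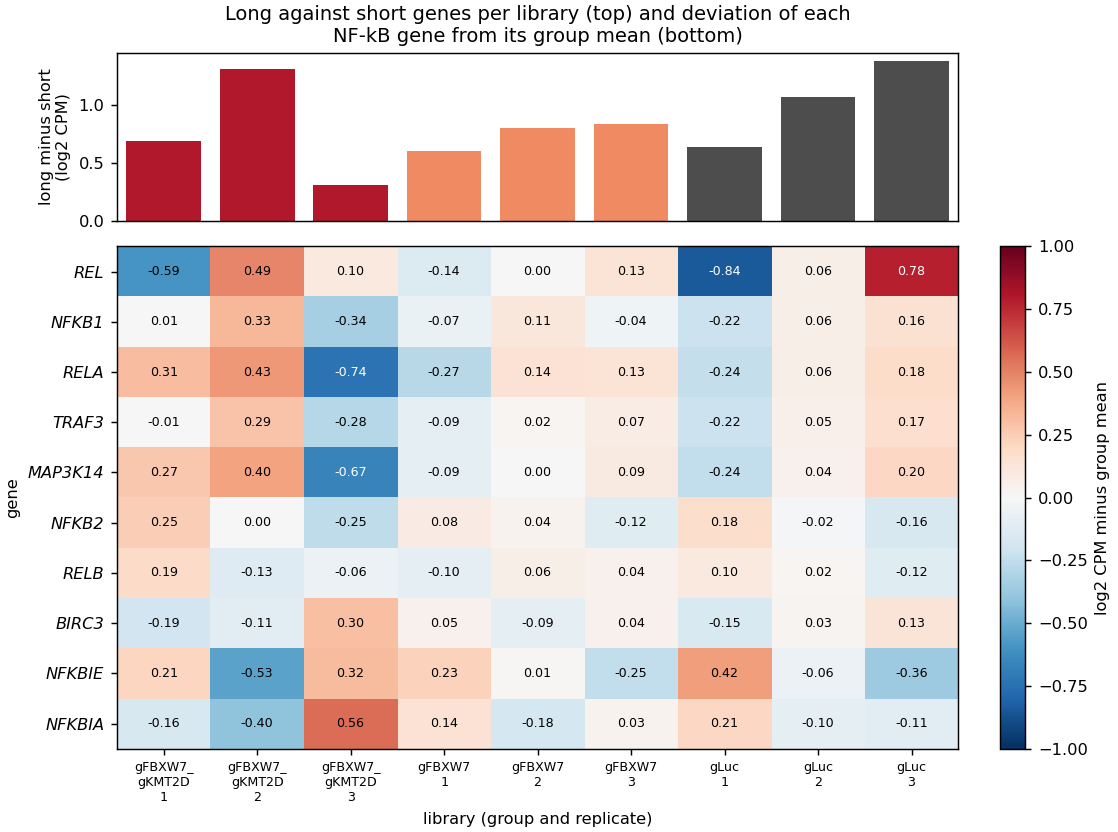
Top, the median log2 CPM of the longest minus the shortest quartile of tested genes in each library. Bottom, the deviation of each NF-kB gene from its group mean in log2 CPM, with red above and blue below the mean. RELA reaches -0.74 and NFKBIA 0.56 in gFBXW7_gKMT2D 3, and REL -0.84 and 0.78 in gLuc 1 and gLuc 3.

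The profile of NFKB2 over the 9 libraries was closest to that of genes outside the system. Ranked over 9990 genes by the mean squared difference of centred and scaled log2 CPM, PHF1, a Polycomb-associated protein, was nearest at 0.010, with 58.4, 49.9 and 43.8 CPM in gFBXW7_gKMT2D, 62.5, 62.4 and 55.6 CPM in gFBXW7, against 63.6, 54.9 and 50.9 CPM in gLuc. It was followed by the Golgi coat regulator ARFGAP2 (0.024), the endoplasmic reticulum cyclophilin PPIB (0.030), the kinase TKFC (0.033) and the Golgi membrane protein YIPF2 (0.033). The nearest member was RELB, at rank 568 (0.448), and the farthest was BIRC3, at rank 9839 (3.31). These ranks describe 9 libraries and carry no test.

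The wider pathway was read from 7 lists of 78 genes, of which 59 were tested. In gFBXW7_gKMT2D against gLuc, 0 passed the test as higher and 1 as lower, where 0.0528% of all tested genes passed. Of the 59 fold changes 19 lay above and 40 below 0, with a median of -0.12. In gFBXW7_gKMT2D against gFBXW7, 0 were called higher and 1 lower, where 0.0603% of all tested genes were called. Here 23 lay above and 36 below 0, with a median of -0.052. In gFBXW7 against gLuc edgeR, DESeq2 and limma-voom called none. Of the 59, 2 had an unadjusted p under 0.05, where 1.58% of all tested genes did. In that comparison 24 lay above and 35 below 0, and the median was -0.033. With both groups that carry the FBXW7 RNA averaged against gLuc, edgeR called none of the 59 and 0.00754% of all tested genes. There limma-voom called none of the 59, and DESeq2 called CD74 as lower. In this average 21 lay above and 38 below 0, with a median of -0.089. The medians over all tested genes were 0.0002, 0.022, -0.0042 and -0.0038, in the order above. At an unadjusted edgeR p under 0.05 there were 3, 4, 2 and 3 of the 59 in the same order. Among all tested genes the shares were 3.61%, 4.22%, 1.58% and 1.92%.

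The called gene was CD74, the invariant chain of MHC class II and a member of the list of NF-kB target genes, which was put together with its change already known and is no independent evidence. It had 61.3, 61.3 and 60.9 CPM in gFBXW7_gKMT2D, 115, 152 and 143 CPM in gFBXW7, against 141, 144 and 168 CPM in gLuc. In gFBXW7_gKMT2D it fell by 1.30 on the log2 scale against gLuc (SE 0.14, adjusted p = 0.0125) and by 1.16 against gFBXW7 (SE 0.14, adjusted p = 0.0266). These are the edgeR values, and over 23 alternatives it was called in 16 of the first comparison (adjusted p up to 0.138) and 9 of the second (up to 0.245), with log2 fold changes from -1.38 to -1.21 and from -1.27 to -1.06. The call against gLuc ended without gFBXW7_gKMT2D 1, without gFBXW7 3 and without each gLuc library (adjusted p from 0.0552 to 0.125). Of the 9 libraries left out in turn, only the omission of gFBXW7_gKMT2D 3 left the call against gFBXW7 standing (adjusted p = 0.0487).

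WNT10A, a secreted ligand on the same target list, had 2.19, 2.61 and 2.08 CPM in gFBXW7_gKMT2D, 3.62, 3.99 and 4.08 CPM in gFBXW7, against 4.66, 4.92 and 4.43 CPM in gLuc. The 3 groups did not overlap in any pair. Of all tested genes 6.97% lay apart in gFBXW7_gKMT2D against gLuc, 9.55% in gFBXW7_gKMT2D against gFBXW7 and 8.86% in gFBXW7 against gLuc, each share being for a single pair. WNT10A and the pathway genes named below were picked for the lowest unadjusted p of their lists in these comparisons. That their groups lie apart is therefore no independent evidence. The log2 fold change of gFBXW7_gKMT2D against gLuc was -1.01 (SE 0.17, unadjusted p = 0.000139, adjusted p = 0.169), and with DESeq2 the adjusted p was 0.00625. Over 23 alternatives WNT10A was called in 2, with adjusted p up to 0.974 and log2 fold changes from -1.125 to -0.61. Its lowest library held 29 reads. Of the 26 target genes 12 were tested, and 4 of the 12 lay above and 8 below 0 in that comparison, with a median of -0.14. IRF1, an interferon regulatory factor on that list, had 35.7, 30.6 and 37.4 CPM in gFBXW7_gKMT2D, 38.4, 38.4 and 40.6 CPM in gFBXW7, against 33.5, 31.6 and 31.5 CPM in gLuc, with a value of 0.28 in gFBXW7 against gLuc (log2 fold change, SE 0.12, adjusted p = 0.956).

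**Figure D4:**
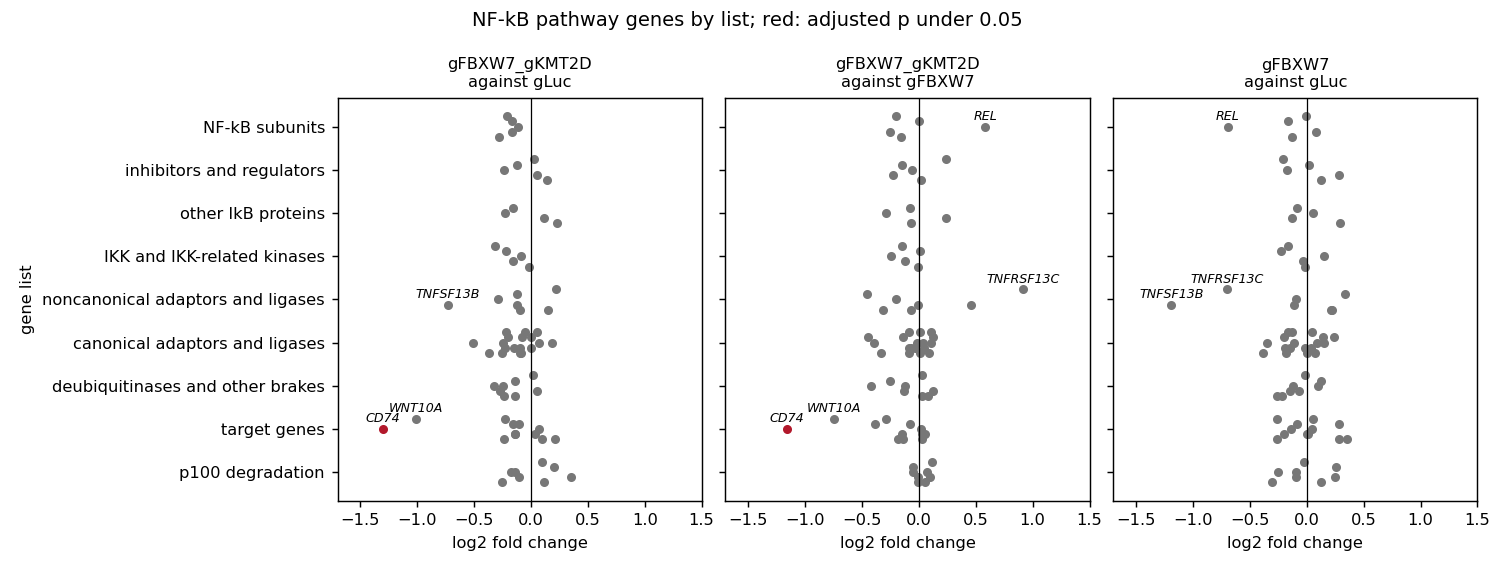
Log2 fold change of each tested gene of the NF-kB lists in the 3 pairwise comparisons, one row per list, with genes at an adjusted p under 0.05 in red (edgeR, 3 libraries a group). CD74 is the only red point, at -1.30 against gLuc and -1.16 against gFBXW7, and most other genes lie near 0.

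On the noncanonical side, 7 of 11 genes of receptors, ligands, adaptors and ligases were tested, with 2 above and 5 below 0 in gFBXW7_gKMT2D against gLuc and none called. TNFSF13B, the survival factor BAFF, had 1.01, 0.543 and 1.36 CPM in gFBXW7_gKMT2D, 1.08, 0.297 and 0.611 CPM in gFBXW7, against 1.54, 1.36 and 1.71 CPM in gLuc. The gFBXW7 libraries lay below all gLuc libraries, at a difference of -1.19 on the log2 scale (SE 0.43, adjusted p = 0.956), with 5 reads in the lowest library, and 8.86% of all tested genes lay apart in that comparison. TNFRSF13C, the BAFF receptor, had 0.842, 0.713 and 1.22 CPM in gFBXW7_gKMT2D, 0.540, 0.357 and 0.509 CPM in gFBXW7, against 0.742, 0.735 and 0.828 CPM in gLuc. Its gFBXW7 libraries lay below all others, as groups did for 8.86% of tested genes against gLuc and 9.55% against gFBXW7_gKMT2D, in either direction. The difference of gFBXW7_gKMT2D was 0.92 on the log2 scale against gFBXW7 (SE 0.31, adjusted p = 1) and 0.22 against gLuc (SE 0.29). That of gFBXW7 against gLuc was -0.70 (SE 0.32, adjusted p = 0.956). The values of TNFSF13B and TNFRSF13C rest on few reads.

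The 5 genes of the IKK and related kinases had fold changes below 0 in gFBXW7_gKMT2D against gLuc (median -0.16), and none was called, with IKBKE at -0.32 (SE 0.19, adjusted p = 0.902), and at -0.16 without gFBXW7_gKMT2D 3. The scaffold IKBKG had -0.24 (SE 0.17, adjusted p = 1) in gFBXW7_gKMT2D against gFBXW7. Among 18 tested adaptors and ligases of the canonical route, 5 lay above and 13 below 0, with the kinase RIPK1 at -0.51 (SE 0.25, adjusted p = 0.902), which was -0.26 without gFBXW7_gKMT2D 3. The adaptor TRADD had a value of -0.45 (SE 0.22) in gFBXW7_gKMT2D against gFBXW7. All 8 deubiquitinases and other brakes were tested, 2 above and 6 below 0. Of these TNIP1, a partner of the deubiquitinase TNFAIP3, had 74.2, 68.6 and 54.2 CPM in gFBXW7_gKMT2D, 89.4, 92.3 and 82.9 CPM in gFBXW7, against 91.2, 77.6 and 78.1 CPM in gLuc. Its gFBXW7_gKMT2D libraries lay below all others, as groups did for 6.97% of tested genes against gLuc and 9.55% against gFBXW7, in either direction, with log2 fold changes of -0.32 against gLuc (SE 0.14, adjusted p = 0.902) and -0.42 against gFBXW7 (SE 0.14, adjusted p = 1). The deubiquitinase CYLD had a value of -0.27 against gLuc (SE 0.13).

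The other IkB proteins and the machinery of p100 degradation gave no call. All 4 other IkB proteins were tested, with 2 above and 2 below 0 in gFBXW7_gKMT2D against gLuc, among them BCL3 at -0.16 (SE 0.13), and at -0.074 without gFBXW7_gKMT2D 3. NFKBID had 0.24 (SE 0.17, adjusted p = 1) in gFBXW7_gKMT2D against gFBXW7. All 8 genes of p100 degradation were tested, with 4 above and 4 below 0 and a median of -0.0059. GSK3B, a kinase that phosphorylates p100 ahead of FBXW7 binding, had a log2 fold change of -0.31 (SE 0.25), and CUL1, the cullin of the SCF ligase, of -0.25 (SE 0.23), both in gFBXW7 against gLuc (adjusted p = 0.956).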

How the data were processed

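Strand-specific libraries of poly(A)-selected RNA were sequenced, per the labels' protocols. The tools named, per the submitters' processing notes, are STAR, Trimmomatic, featureCounts and DESeq2, without versions, and the build is GRCh38. Per the file headers, the deposited table gives each gene's length and, for each library, a read count, which the authors had not normalised, and an RPKM value. Recomputing the deposited RPKM from count, length and library total gave relative differences of at most 8.5e-07. Of 38478 gene rows 12580 held no reads.

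The count analysis used edgeR 4.0.16 in R 4.3.3: filterByExpr by group (13262 genes), TMM scaling, and glmQLFit and glmQLFTest with group as the only term on all 9 libraries, with p-values adjusted by Benjamini-Hochberg across these genes and called at 0.05. The F statistic and the fold change gave standard errors and 95% intervals. Log2 CPM used a prior count of 2. P-values measure the spread between the labelled replicates. Levels between genes were compared by RPKM only. The pipeline was tested on simulated data.

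The members and lists were chosen with earlier results of these data known. Of the 7 other lists, called genes and the 2 genes of lowest unadjusted p were named. Likeness to NFKB2 used the genes with a mean log2 CPM of at least 2. Coordinates are from GENCODE v29 on GRCh38, 1-based, matched by symbol, and GC content was known for 88.1% of tested genes. Promoters are RefSeq's for GRCh38.p14. Replicate numbers were not used as pairs in the main fit. Deviations of libraries with the same number correlated from -0.59 to 0.45, and 4 of 9 libraries correlated best with their own number. These values cannot decide whether libraries of the same number were prepared together. Within each group no library repeated another (chi-squared over degrees of freedom between 6.65 and 254). Libraries of different groups were not compared in this way.

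Alternatives were DESeq2 size factors, upper quartile scaling, TMM leaving out immunoglobulin and mitochondrial genes, a mean of at least 50 reads, no filter, DESeq2 1.42.0, limma-voom (limma 3.58.1), limma on log2 of RPKM plus 1 or 0.1, only the 6 compared libraries, the replicate block, 1 surrogate variable (sva 3.50.0), a threshold of 0.01 and each library left out. Models that remove each library's trend with gene length or with GC content (lowess, span 0.3) were chosen after seeing the data. Figures were made with Python 3.11.15, pandas 2.3.3 and matplotlib 3.10.9.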

Additional observations from a re-analysis of the deposited data

How the results depend on the processing

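Of 910 fold changes of the 10 members under 23 alternatives, none passed an adjusted p of 0.05 and 65 changed sign, the smallest adjusted p being 0.264 (NFKB1 and TRAF3 in gFBXW7_gKMT2D against gLuc without gFBXW7_gKMT2D 2). The fold changes of NFKB2 kept their sign in the 3 pairwise comparisons. In gFBXW7 against gLuc, however, that of NFKB2 ran from 0.0022 to 0.18 with single libraries left out. In both groups against gLuc it changed sign in 2 of 22 alternatives. The causes of the changes below were not tested. Fold changes are log2. At 3 libraries a group, the data did not exclude differences inside the intervals. The intervals were not adjusted for the number of genes tested and are no limit of detection.

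With 1 surrogate variable, gFBXW7 against gLuc gave 0.017 for NFKB1, 0.073 for RELA and -0.064 for NFKBIA. With it, gFBXW7_gKMT2D against gLuc gave 0.14 for REL, 0.040 for RELA, -0.12 for NFKBIA, -0.18 for NFKBIE, 0.064 for MAP3K14 and -0.040 for BIRC3. It gave -0.033 for RELA and -0.060 for NFKBIA in gFBXW7_gKMT2D against gFBXW7, and 0.057 for RELA, -0.094 for NFKBIA, -0.042 for NFKBIE and 0.16 for MAP3K14 in both groups against gLuc. Without the length trend, chosen after seeing the data, NFKBIA had -0.028 in gFBXW7 against gLuc, -0.014 in gFBXW7_gKMT2D against gLuc and -0.021 in both groups against gLuc, REL had 0.0035 in gFBXW7_gKMT2D against gLuc, and BIRC3 had 0.014 in both groups against gLuc. Without the GC trend, likewise chosen later, MAP3K14 had -0.046 in gFBXW7 against gLuc and TRAF3 had 0.0055 in gFBXW7_gKMT2D against gFBXW7.

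With limma on log2 of RPKM plus 1, MAP3K14 had -0.0066 in gFBXW7 against gLuc, NFKBIE had -0.018 and BIRC3 -0.054 in gFBXW7_gKMT2D against gLuc, and RELA had -0.095 and NFKBIA -0.062 in gFBXW7_gKMT2D against gFBXW7. With 0.1 added in place of 1, these values were -0.0056 for MAP3K14, -0.020 for NFKBIE, -0.054 for BIRC3, -0.10 for RELA and -0.065 for NFKBIA. With limma-voom, RELA had -0.067 and NFKBIA -0.046 in gFBXW7_gKMT2D against gFBXW7.

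With the replicate block, RELA had -0.017 and NFKBIA -0.011 in gFBXW7_gKMT2D against gFBXW7, NFKB2 had 0.090 in gFBXW7 against gLuc, and all-gene calls were 2 in gFBXW7_gKMT2D against gLuc, 2 against gFBXW7 and 0 in both groups against gLuc. The calls of CD74 ended with the block (adjusted p = 0.0845 against gLuc and 0.110 against gFBXW7).

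Leaving out each library in turn, fold changes in gFBXW7_gKMT2D against gLuc ran from -0.43 to 0.37 for REL, -0.38 to 0.12 for RELA, -0.19 to 0.32 for NFKBIA, -0.10 to 0.30 for NFKBIE, -0.32 to 0.14 for MAP3K14 and -0.13 to 0.12 for BIRC3. Against gFBXW7 they ran from -0.34 to 0.0028 for NFKB1, -0.21 to 0.29 for RELA, -0.31 to 0.20 for NFKBIA, -0.22 to 0.076 for TRAF3 and -0.35 to 0.12 for MAP3K14. In gFBXW7 against gLuc they ran from -0.075 to 0.044 for RELB and -0.088 to 0.12 for MAP3K14, and in both groups against gLuc from -0.12 to 0.051 for NFKB2, -0.72 to 0.071 for REL, -0.038 to 0.24 for NFKBIA and -0.16 to 0.079 for MAP3K14. All-gene calls ran from 2 to 8 in gFBXW7_gKMT2D against gLuc, 0 to 7 against gFBXW7 and 0 to 2 in both groups against gLuc.

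All-gene calls in these same 3 comparisons were 24, 32 and 6 with DESeq2 (1 in gFBXW7 against gLuc), 21, 33 and 5 with no filter, 55, 124 and 4 with 1 surrogate variable, and 2, 1 and 0 at a threshold of 0.01. In the first they were 4 with limma on either RPKM scale and 2 with the 6 compared libraries. In the second they were 3 with limma on either RPKM scale, 0 with the 6 libraries, 5 with upper quartile scaling and 5 without the length trend. In the third they were 0 with limma-voom and 3 without the length trend.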
